A study of Mus musculus with 77 samples.

Results

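The genes described here are 10 genes of the ATF4 and amino acid stress response, chosen by symbol: the transcription factors Atf4, Atf3 and Ddit3, the feedback inhibitor Trib3, the enzymes Asns, Psat1, Phgdh and Chac1, the stress protein Sesn2 and the lipoprotein receptor Vldlr. All 10 were found by symbol in 9 of the 10 deposited tables, among 24940 genes in the 4 tables of MR cells and 25124 in 5 others. The last table lists 404 genes and holds 8 of the 10. RNA of mouse adenocarcinoma cells and of colon organoids (gut epithelium cultured as small hollow bodies in a matrix) was sequenced 2 h after vehicle, 10 nM aldosterone, the main mineralocorticoid, or 100 nM corticosterone, the main glucocorticoid of rodents.

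The cells were either parental or labelled GRKO, a knockout label for the glucocorticoid receptor (GR, gene Nr3c1). They carried the mineralocorticoid receptor MR (gene Nr3c2; the sample titles call these lines MR-1G12 when parental and MR-2B12 when GRKO), a form called MR580C, or, in a parental line given vehicle or aldosterone, no added MR. The organoids were WT or labelled GRKO and received vehicle or aldosterone; the column names of the latter read GRKD, so whether the receptor gene was knocked out or knocked down is not settled. Cells and organoids all spent 24 h in medium with 10% charcoal-stripped serum before hormone. Cell groups had 3 libraries, except 2 each for aldosterone and corticosterone in parental MR cells and 2 distinct aldosterone libraries in MR580C cells labelled GRKO. WT organoids had 6 libraries in each group and organoids labelled GRKO had 5. The labels do not say how many clones or animals stand behind a group, or that replicates are separate cultures, so a p-value measures only the spread between these samples.

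ATF4 is the effector of the integrated stress response: kinases that sense lack of amino acids, unfolded protein in the endoplasmic reticulum or other stress phosphorylate the translation factor eIF2alpha, and ATF4 protein is then made from RNA that is already present. Its targets make and import amino acids, charge transfer RNA and limit growth signalling. In cell culture the set tracks amino acid supply and endoplasmic reticulum stress, and because ATF4 is controlled largely by translation, the level of Atf4 RNA says little by itself about ATF4 protein.

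Library totals ran from 22.68 to 61.12 M reads. The corticosteroid target Per1, a clock repressor, was used as a check of the hormone: it rose by 2.13 ± 0.069 (log2 difference ± SE) in WT organoids and by 1.19 ± 0.082 in parental MR cells given corticosterone. Nr3c1 RNA lay between 8.82 and 9.24 in organoids labelled GRKO and between 10.50 and 11.42 in WT organoids, but between 12.94 and 13.09 in MR cells labelled GRKO and between 12.53 and 12.90 in parental MR cells. The RNA therefore does not check the GRKO label of the MR cells. In the organoids all 6 epithelial, all 5 colonocyte and all 5 goblet cell markers were well above the table minimum, whereas no immune, stromal or endothelial marker was. The adenocarcinoma cells did not show the epithelial markers: Epcam was listed at 0 or at the minimum in all their tables but that of 404 genes, which lists none of these markers. The collagen gene Col1a2 lay between 15.5 and 17.2 in vehicle cells. Bulk RNA cannot tell apart fewer cells of a type from less RNA per cell.

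The promoters of 5 members are shown because ATF4 acts on DNA through the CARE core, 8 bases bound by ATF4 with a C/EBP partner and written TGATGNAA. Atf3 and Vldlr are the members that rose in WT organoids, Ddit3 is the one that fell in 2 parental cell lines, and Chac1 and Asns are classical ATF4 targets. Each line gives the 250 bases before the start site, 5′ to 3′ on the gene's own strand, from RefSeq on GRCm38.p6. Capitals mark a CARE core on either strand or, in Ddit3, the AP-1 motif TGACTCA:
Atf3, chr1:191183334-191183583, minus strand: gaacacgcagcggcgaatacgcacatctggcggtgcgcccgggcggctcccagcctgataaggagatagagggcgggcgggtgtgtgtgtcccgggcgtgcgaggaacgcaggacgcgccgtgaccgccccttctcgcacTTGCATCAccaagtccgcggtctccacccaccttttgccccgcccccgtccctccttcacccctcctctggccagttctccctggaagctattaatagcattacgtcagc
Vldlr, chr19:27216770-27217019, plus strand: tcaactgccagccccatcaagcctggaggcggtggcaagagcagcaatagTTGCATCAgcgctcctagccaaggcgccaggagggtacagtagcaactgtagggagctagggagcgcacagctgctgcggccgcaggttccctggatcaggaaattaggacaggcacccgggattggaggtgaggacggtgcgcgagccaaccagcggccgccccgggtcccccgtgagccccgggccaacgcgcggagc
Ddit3, chr10:127290543-127290792, plus strand: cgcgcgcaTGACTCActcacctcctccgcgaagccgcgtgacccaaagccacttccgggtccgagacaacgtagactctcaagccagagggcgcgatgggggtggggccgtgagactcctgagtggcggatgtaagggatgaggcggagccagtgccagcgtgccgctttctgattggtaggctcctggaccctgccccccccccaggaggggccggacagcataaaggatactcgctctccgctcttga
Chac1, chr2:119350992-119351241, plus strand: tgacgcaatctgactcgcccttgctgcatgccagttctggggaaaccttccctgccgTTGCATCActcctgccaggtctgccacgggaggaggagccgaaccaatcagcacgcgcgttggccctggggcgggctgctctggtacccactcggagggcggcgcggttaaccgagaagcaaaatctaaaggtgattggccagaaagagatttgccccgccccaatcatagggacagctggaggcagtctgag
Asns, chr6:7693210-7693459, minus strand: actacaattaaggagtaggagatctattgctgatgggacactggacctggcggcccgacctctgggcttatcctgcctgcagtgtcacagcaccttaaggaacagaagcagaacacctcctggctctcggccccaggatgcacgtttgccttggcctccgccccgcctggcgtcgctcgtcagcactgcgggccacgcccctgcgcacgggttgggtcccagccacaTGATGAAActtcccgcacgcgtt

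All 10 members had a promoter window in RefSeq, 12 windows in all since Psat1 and Vldlr have a pair each. In windows of 300 bases (250 before to 50 after the start), the CARE core was found on either strand in 5 of 10 members, against 3.97% of 32851 windows of all genes. Members are counted by gene and the background by window. As the members were chosen as genes of the ATF4 response, these shares carry no test. In Atf3 the CARE core lay at bases -110 to -103 from the start site, in Asns at -23 to -16, in Chac1 at -193 to -186 and in the window of Vldlr that belongs to the transcript used in the organoid tables at -200 to -193. In Trib3 the match TTACATCA lay after the start, at bases 15 to 22. The AP-1 motif was found only in Ddit3, at -242 to -236, against 5.2% of all windows. The corticosteroid receptor half-site AGAACA was found in Asns and in the other Vldlr window, against 19% of windows, and the full element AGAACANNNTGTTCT in 0 of 10 members, against 0.00913%. No match shared a base with another, and a match describes letters in these windows, not binding. ATF4 or receptor binding at these promoters was not analysed here.

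**Figure D1:**
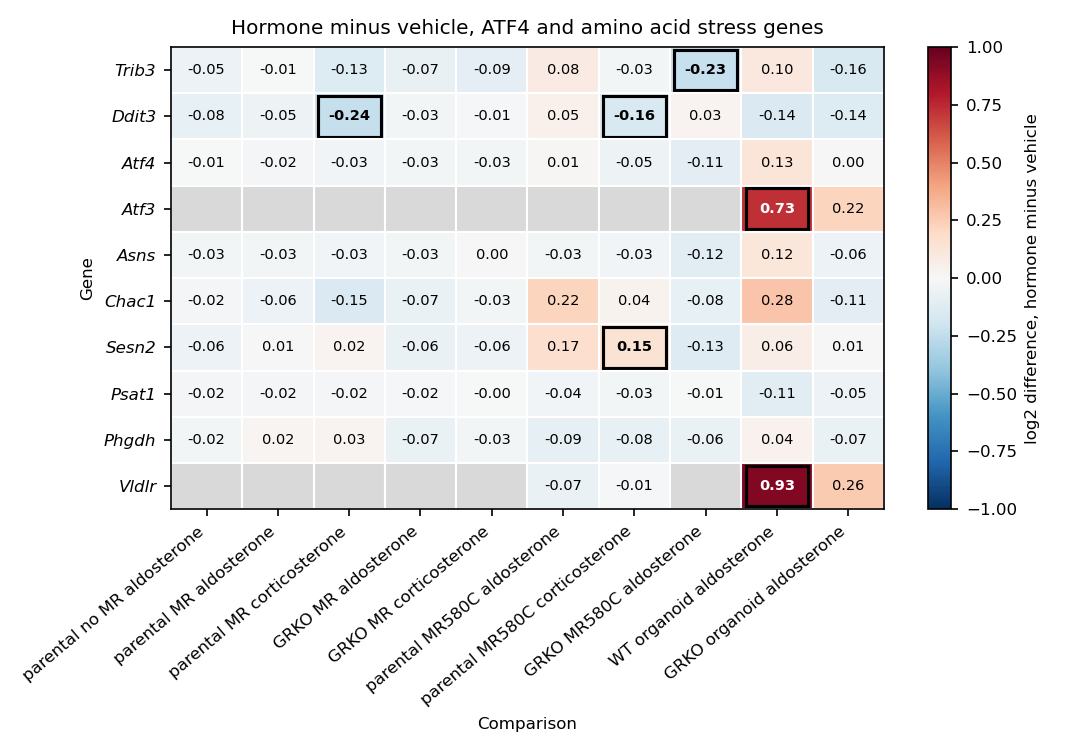
Log2 difference (hormone minus vehicle) of the 10 genes in the 10 comparisons that were tested, in colour and as numbers; framed values passed limma's adjusted threshold of 0.05 and grey fields were not tested. The framed values are 0.73 and 0.93 for Atf3 and Vldlr in WT organoids, -0.24 and -0.16 for Ddit3 and 0.15 for Sesn2 with corticosterone in parental cells, and -0.23 for Trib3 with aldosterone in MR580C cells labelled GRKO.

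Aldosterone raised Atf3 and Vldlr in WT colon organoids, and the other 8 members did not pass the test. Atf3, a transcription factor of the ATF/CREB family induced by ATF4 and by many other stress signals, gained 0.73 ± 0.12 (log2 difference ± SE; limma adjusted p = 0.00057, Benjamini-Hochberg over 20196 genes, n = 6 libraries per group). Vldlr, a receptor for triglyceride-rich lipoproteins that ATF4 induces under endoplasmic reticulum stress, gained 0.93 ± 0.11 (limma adjusted p = 9.4e-06). Of all genes tested in WT organoids 6.59% passed the threshold of 0.05, and 4.23% did so upward.

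On the deposited log2 scale (a variance-stabilizing transformation), Atf3 (NM_007498, chr1:191170297-191183333, minus strand, mm10) ran from 8.79 through a median of 9.06 to 9.34 in the 6 vehicle libraries. In the 6 aldosterone libraries it ran from 9.42 through 9.69 to 10.16. The means were 9.05 ± 0.22 and 9.78 ± 0.30 (SD, n = 6 each). The groups did not overlap, and 3.29% of all genes had aldosterone libraries wholly above vehicle. Vldlr (NM_013703, chr19:27217020-27254231, plus strand) ran from 9.74 through a median of 10.08 to 10.27 with vehicle. With aldosterone it ran from 10.59 through 10.99 to 11.21. The means were 10.02 ± 0.23 and 10.95 ± 0.23 (SD). Every aldosterone library lay above every vehicle library for Vldlr too. Leaving out any 1 of the 12 libraries kept both calls, with differences from 0.65 to 0.80 for Atf3 and from 0.87 to 1.00 for Vldlr. The authors' deposited table, with 8.15% of genes called, gives 0.88 for Atf3 and 1.01 for Vldlr (adjusted p = 2.0e-07 and 5.4e-14). The summed stromal markers stayed between 8.44 and 8.68 with vehicle but reached 10.14 in 1 aldosterone library, with no stromal marker well above the minimum on average, and of the 5 colonocyte markers Aqp8 fell by 0.44 ± 0.12 (limma adjusted p = 0.039), while Slc26a3 at 0.31, Krt20 at 0.07, Car1 at -0.05 and Car4 at -0.11 did not pass. The part of these shifts in the results for Atf3 and Vldlr was not tested.

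**Figure D2:**
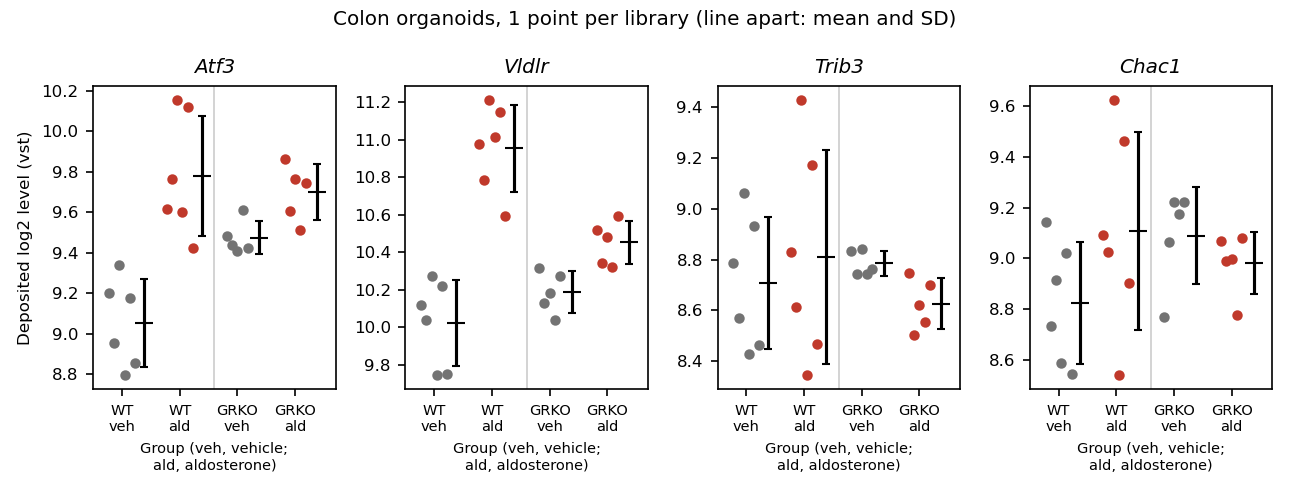
Deposited log2 level (vst) of Atf3, Vldlr, Trib3 and Chac1 in each colon organoid library, with the mean and SD of each group beside the points; WT and GRKO libraries come from separately normalized tables. Atf3 and Vldlr separate WT vehicle from WT aldosterone, with vehicle up to 9.34 and 10.27 and aldosterone from 9.42 and 10.59, while Trib3 and Chac1 overlap.

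In organoids labelled GRKO, none of the 10 members passed limma's test, against 1.31% of all genes. Of the 5 colonocyte markers Slc26a3, a chloride exchanger, rose by 0.61 ± 0.088 there (limma adjusted p = 0.0010), while Krt20 at 0.31, Car4 at 0.30, Car1 at 0.14 and Aqp8 at -0.05 did not pass, and the part of this shift in the values of members was not tested. Vldlr had the smallest p of the 10. Vldlr read 10.32, 10.13, 10.18, 10.04 and 10.27 with vehicle and 10.52, 10.34, 10.48, 10.32 and 10.59 with aldosterone. Aldosterone libraries were at or above the highest vehicle library, just without overlap, as for 2.01% of all genes, and the difference was 0.26 ± 0.064 (limma adjusted p = 0.065). Atf3 read 9.48, 9.44, 9.41, 9.61 and 9.42 with vehicle and 9.86, 9.61, 9.76, 9.51 and 9.75 with aldosterone, which overlap, and differed by 0.22 ± 0.065 (limma adjusted p = 0.15). The authors' deposited table, with 2.33% of all genes called, calls both upward, Vldlr with a log2 fold change of 0.31 (adjusted p = 0.0096) and Atf3 with 0.29 (adjusted p = 0.040). Limma called Vldlr as well without vehicle library 1, at 0.30 (adjusted p = 0.0058), or without aldosterone library 4 (adjusted p = 0.048). Trib3, the feedback inhibitor, read 8.84, 8.75, 8.84, 8.74 and 8.76 with vehicle and 8.75, 8.50, 8.62, 8.55 and 8.70 with aldosterone, which overlap, and differed by -0.16 ± 0.056 (limma adjusted p = 0.28). In these organoids 4 members, Vldlr, Atf3, Trib3 and Ddit3, had an unadjusted p under 0.05, as 10.3% of all genes did.

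The response of Vldlr to aldosterone was larger in WT organoids than in those labelled GRKO, by 0.67 ± 0.14 (limma interaction, adjusted p = 0.0060, 2.59% of 19375 genes called). For Atf3 the difference between responses was 0.50 ± 0.16 (adjusted p = 0.10), which passed the threshold without WT vehicle library 3 (adjusted p = 0.048) or without WT aldosterone library 6 (adjusted p = 0.035). With replicate number added to the fit Atf3 passed as well, although the numbers were not taken as pairs. For the remaining 8 members the difference between responses ran from -0.06 for Psat1 to 0.39 for Chac1, and 0 of them passed. The median difference over the 10 members was 0.15, against 0.0018 over all genes tested. Since both tables were normalized separately, the vehicle levels of Atf3, with a median of 9.06 in WT and 9.44 in GRKO organoids, stand side by side and were not compared.

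The targets that define the amino acid side of the response did not pass the test in WT organoids. Atf4 itself ran from 11.74 to 12.04 with vehicle and from 11.78 to 12.30 with aldosterone, a difference of 0.13 ± 0.081 (limma adjusted p = 0.51). Chac1, which degrades glutathione, ran from 8.54 to 9.14 and from 8.54 to 9.63, a difference of 0.28 ± 0.15 (adjusted p = 0.38). Asns, which makes asparagine, differed by 0.12 ± 0.082 (adjusted p = 0.54). In all 3 genes the groups overlapped. Trib3, a pseudokinase that ATF4 induces and that dampens ATF4 and AKT signalling, differed by 0.10 ± 0.16, and Ddit3 (also called CHOP, a death-promoting factor of prolonged stress) by -0.14 ± 0.083. The serine synthesis enzymes Phgdh and Psat1 and the TORC1 inhibitor Sesn2 lay between -0.11 and 0.06. Over all 10 members the median was 0.11, against -0.0047 over all genes, with 8 of 10 differences above 0.

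Of 90 further genes of the pathway in 7 lists, 12 rose and 5 fell in WT organoids, 18.9% against 6.59% of all genes. The lists were chosen with earlier results of these data known, and the share of all genes includes genes near the minimum. These shares therefore carry no test. Among the partners and stress factors 4 of 15 rose, led by Ddit4, a TORC1 inhibitor, at 1.99 ± 0.084 (limma adjusted p = 1.0e-11), Gadd45a at 0.73 and the cytokine gene Gdf15 at 0.86, and 2 fell, led by Trib1, a relative of Trib3, at -0.60. Of the sensors and phosphatases 2 of 8 rose: Eif2ak4, which encodes the amino acid sensor GCN2, by 0.40 ± 0.077 (adjusted p = 0.0021), and Ppp1r15a, the stress-induced eIF2alpha phosphatase subunit GADD34, by 0.31 ± 0.078 (adjusted p = 0.020). Of the amino acid synthesis genes 3 of 15 rose, Got1, Gpt2 and Cbs, by 0.20 to 0.33. Among 20 aminoacyl-tRNA synthetase genes 1 rose, Yars, by 0.24, and among 11 amino acid transporters 1 fell, Slc1a4, by 0.32.

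The endoplasmic reticulum list held the largest rise among the 90 genes in WT organoids: Herpud1, a membrane protein of the degradation machinery, gained 2.54 ± 0.074 (limma adjusted p = 9.7e-14). Xbp1, a master regulator of the unfolded protein response, fell by 0.17, and the other 14 of the 16 did not pass. Of the relatives of the members, Sesn1, which like Sesn2 inhibits TORC1, gained 1.47 ± 0.078, and Lrp8, a close relative of Vldlr, fell by 0.25. In organoids labelled GRKO 3 of the 90 genes rose, Herpud1 by 1.13, Ddit4 by 0.95 and Gadd45a by 0.60, and 0 fell (3.33%, against 1.31% of all genes). The response differed between WT and GRKO organoids for 4 of the 90: Herpud1 by 1.41, Sesn1 by 1.34, Ddit4 by 1.04 and Trib1 by -0.56 (4.44%, against 2.59% of all genes). As in WT organoids, the shares given here carry no test.

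Among WT organoid libraries most members varied together, with lower values among organoids labelled GRKO. With each group's mean removed, the correlation with the mean of the other 9 members over the 12 WT libraries was 0.98 for Atf4, 0.97 for Trib3, 0.92 for Chac1 and 0.92 for Atf3. Over the 10 GRKO libraries it was 0.32, 0.64, -0.11 and 0.05 for the same genes, and the highest was 0.80 for Vldlr. Psat1 did not follow the rest in WT organoids (-0.083) and Phgdh did so at 0.57, although both make serine. Over all 22 libraries, in which the wider spread of WT weighs most, the closest pair was Atf4 and Chac1 with r = 0.94. These correlations describe libraries that share tables and normalization, they carry no test, and the difference between WT and GRKO organoids was not tested.

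The libraries of WT organoids spread most. The mean deviation of the 10 genes ran from -0.25 to 0.28 in WT aldosterone libraries and from -0.18 to 0.19 in WT vehicle libraries, but only from -0.059 to 0.079 and from -0.042 to 0.029 in the GRKO groups. In WT organoids the order of replicate numbers from highest to lowest was 3, 5, 1, 2, 6 and 4 with vehicle and again 3, 5, 1, 2, 6 and 4 with aldosterone. The spread for single members was wide: Trib3 ran from 8.34 to 9.43 across the 6 WT aldosterone libraries, more than the response of Atf3. Over all genes the same numbers did not deviate together in every pair, so the numbers were not taken as pairs. The 5 genes outside the set whose deviations followed the mean of the members best, of 19365, were Adm2 (r = 0.93), the glycolytic enzyme gene Pfkl (0.91), Ier3 (0.91), the glucose transporter gene Slc2a1 (0.91) and Rcor2 (0.90). None of these 5 passed the test for aldosterone in WT organoids, where their differences ran from -0.21 to 0.19.

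**Figure D3:**
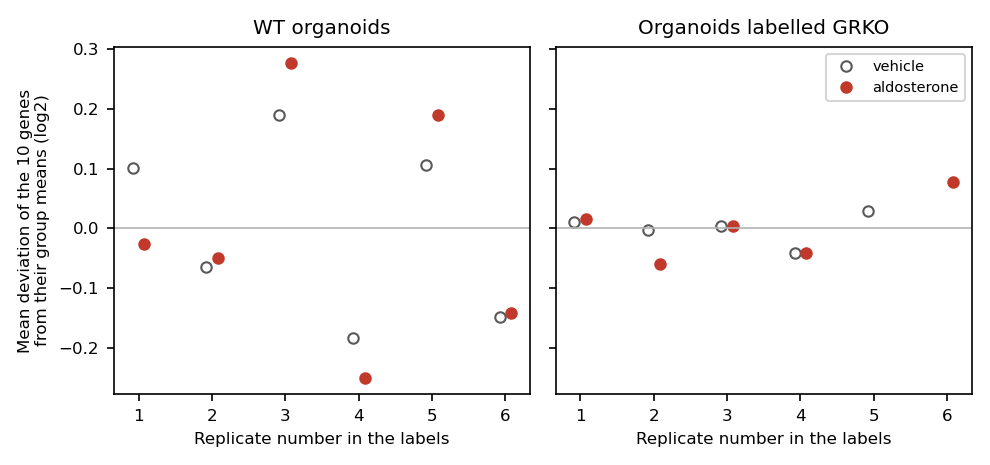
Mean deviation of the 10 genes from their group means (log2) in each organoid library, by replicate number; open points are vehicle and filled points aldosterone. WT libraries with number 3 lie at 0.19 and 0.28 and those with number 4 at -0.18 and -0.25, whereas the GRKO libraries stay between -0.059 and 0.079.

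In the adenocarcinoma cells Atf3 and Vldlr could not be followed. Atf3 was listed at 0 or at a value near the table minimum, under the filter on low values or without variation, in all 7 long tables of these cells, and Vldlr was at 0 or under that filter in 6. In the MR580C table, where Vldlr varied, it lay between 9.16 and 9.28 with a table minimum of 9.16. So 8 members were tested in most cell comparisons and 9 in parental MR580C cells. Those 8 lay well above the minimum of every long table.

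Corticosterone lowered Ddit3 in both parental lines. In parental MR cells Ddit3 (NM_007837, chr10:127290793-127296288, plus strand) read 11.51, 11.54 and 11.45 with vehicle and 11.28 and 11.25 with corticosterone. The groups did not overlap (as for 13.1% of all genes, downward) and differed by -0.24 ± 0.038 (limma adjusted p = 0.0081, n = 3 and 2), 1 of 8 members tested against 3.11% of all genes called. Without vehicle library 1 the adjusted p was 0.055, and without corticosterone library 3 it was 0.065. In parental MR580C cells it read 10.88, 10.91 and 10.91 with vehicle and 10.75, 10.72 and 10.75 with corticosterone. Again without overlap (11.2% of all genes, downward), the difference was -0.16 ± 0.042 (limma adjusted p = 0.019), with 6.92% of all genes called. Leaving out vehicle library 3 or any corticosterone library ended that call, with adjusted p from 0.051 to 0.13. The authors' deposited tables call both, at -0.39 (adjusted p = 6.0e-06, 2.56% of genes called) and -0.31 (adjusted p = 0.00034, 8.79%).

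The fall of Ddit3 was larger in parental MR cells than in MR cells labelled GRKO. The sample titles name these lines MR-1G12 and MR-2B12, so the GRKO label cannot be told apart from other differences between the lines. In the GRKO line Ddit3 read 10.27, 10.37 and 10.38 with vehicle and 10.34, 10.31 and 10.33 with corticosterone, which overlap. The responses differed by -0.22 ± 0.047 (limma interaction, adjusted p = 0.021, 2.86% of genes called), a call that ended without any of 4 libraries, parental vehicle 1, parental corticosterone 3 or GRKO corticosterone 1 or 3 (adjusted p from 0.051 to 0.087). In MR580C cells corticosterone was also set against aldosterone, which read 10.84, 11.06 and 10.95. Ddit3 was lower with corticosterone by 0.21 ± 0.042 (limma adjusted p = 0.0034, 3.35% of genes called), although the doses differ 10 nM against 100 nM, and the call ended without corticosterone library 2 (adjusted p = 0.054). Chac1, at -0.18 ± 0.066 in the same comparison (adjusted p = 0.16), passed without corticosterone library 1 or without aldosterone library 1 (adjusted p = 0.021 and 0.034). The comparison of the hormones shares its corticosterone libraries with the comparison against vehicle in parental MR580C cells, so the results for Ddit3 are not separate. Each hormone was set against the same vehicle libraries in that line.

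Of the other members, Sesn2 rose with corticosterone in parental MR580C cells and 0 passed in parental MR cells. In parental MR cells Chac1 read 11.98, 12.06 and 11.99 with vehicle and 11.81 and 11.91 with corticosterone, a difference of -0.15 ± 0.042 that did not pass (limma adjusted p = 0.14). Trib3 differed by -0.13 ± 0.052 (adjusted p = 0.36), and without vehicle library 3 it passed at -0.19 (adjusted p = 0.019). With replicate number added to the fit Chac1 and Trib3 both passed, although the numbers were not taken as pairs. In parental MR580C cells Sesn2, a stress-induced inhibitor of TORC1, read 11.27, 11.25 and 11.39 with vehicle and 11.48, 11.49 and 11.38 with corticosterone. These groups overlapped, and the rise of 0.15 ± 0.044 was just under the threshold (limma adjusted p = 0.047) and ended without any 1 of 4 libraries, vehicle 1 or 2 or corticosterone 1 or 2 (adjusted p from 0.12 to 0.27). With aldosterone Sesn2 read 11.39, 11.56 and 11.46, a difference of 0.17 ± 0.044 (limma adjusted p = 0.074).

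**Figure D4:**
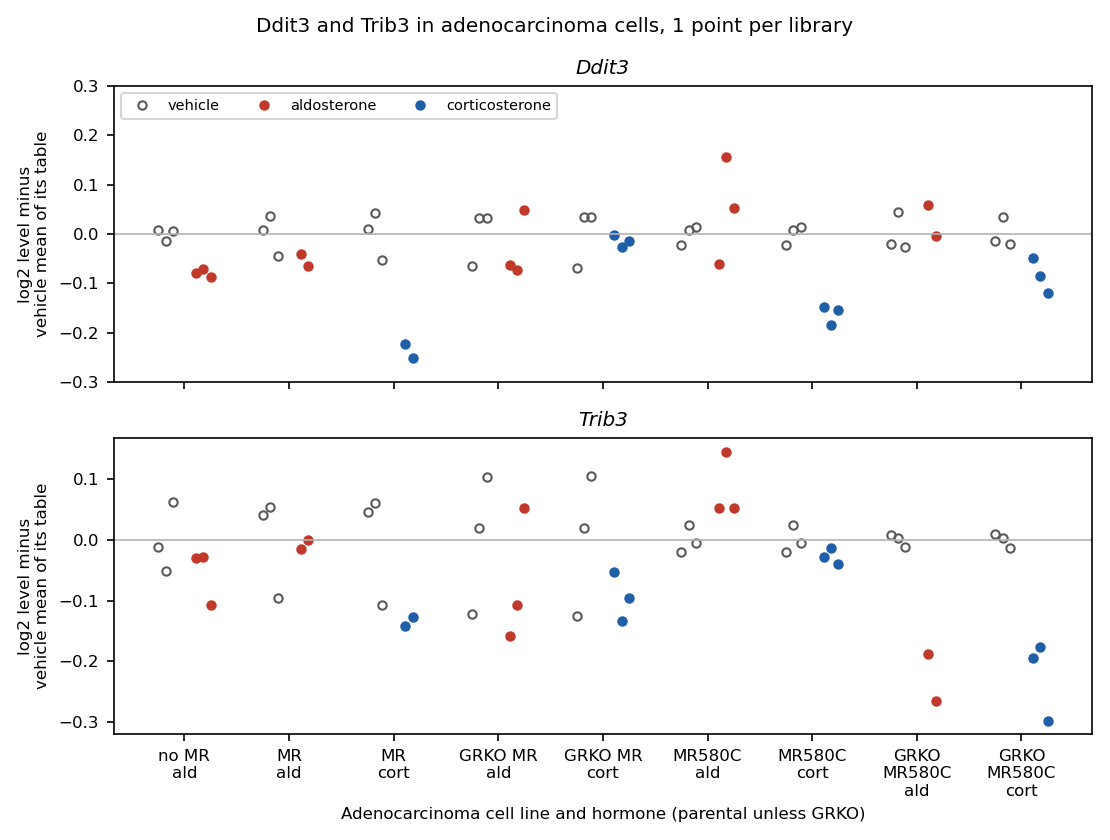
Ddit3 and Trib3 in adenocarcinoma cells, each library's deposited log2 level minus the vehicle mean of its own table; open points are vehicle, red points aldosterone and blue points corticosterone, and the aldosterone libraries of MR580C cells labelled GRKO that hold equal values are drawn as 1 point. Ddit3 drops below all vehicle libraries with corticosterone in parental MR and MR580C cells, and Trib3 drops below them with both hormones in MR580C cells labelled GRKO.

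Atf4 and the enzymes Asns, Psat1 and Phgdh passed in none of the 8 cell comparisons tested. Their differences ran from -0.11 to 0.01 for Atf4, from -0.12 to 0.0030 for Asns, from -0.04 to -0.0036 for Psat1 and from -0.09 to 0.03 for Phgdh. Asns, the asparagine synthetase, read 15.19, 15.15 and 15.10 with vehicle and 15.17 and 15.06 with corticosterone in parental MR cells, which overlap. Phgdh, the first enzyme of serine synthesis, read 13.66, 13.60 and 13.68 with vehicle, 13.60, 13.53 and 13.56 with corticosterone and 13.52, 13.56 and 13.60 with aldosterone in parental MR580C cells. Its differences of -0.08 ± 0.036 and -0.09 ± 0.036 did not pass (limma adjusted p = 0.19 and 0.34).

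Several pathway genes outside the set changed with corticosterone in the parental lines. In parental MR cells 4 of 85 tested rose and 2 fell, 7.06% against 3.11% of all genes: Glul, which makes glutamine, rose by 0.56 and Cebpb, a DNA-binding partner of ATF4, by 0.52, while Gadd45a fell by 0.31 and Nupr1 by 0.21. In parental MR580C cells 7 of 89 rose and 6 fell, 14.6% against 6.92%, with Cebpb at 0.75, Glul at 0.63 and Ddit4 at 0.56, and with the glycine transporter gene Slc6a9 at -0.21. As the lists were chosen with earlier results of these data known, these shares carry no test. That of all genes in MR580C cells also includes genes near the minimum. None of the 20 aminoacyl-tRNA synthetase genes passed in either line. Cebpb and Glul rose more in parental MR cells than in MR cells labelled GRKO, by 0.54 and 0.53 (limma adjusted p = 0.00073 and 3.1e-06). Here too the GRKO label cannot be told apart from other differences between the lines.

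Aldosterone changed no member in parental MR cells (0.697% of all genes called), in MR cells labelled GRKO (0.993%), in parental cells with no added MR (0.00767%) or in parental MR580C cells (1.15%), by limma. At an unadjusted p under 0.05, which 5.32%, 11.4%, 4.58% and 10.9% of all genes reached in these 4 comparisons in that order, 0 members passed in the first, 1 in the second (Phgdh; without aldosterone library 3 limma called Sesn2 there, at -0.12 and adjusted p = 0.029), 2 in the third (Ddit3 and Sesn2) and 5 in the last. Those 5 were Chac1, Sesn2 and Trib3, which were higher, and Phgdh and Vldlr, which were lower. Vldlr stood at the minimum of 9.16 in every aldosterone library there. Corticosterone changed no member in MR cells labelled GRKO either, where 0 also passed unadjusted (9.17% of all genes did) and 0.248% of genes were called. In parental MR580C cells Chac1 read 12.02, 11.96 and 12.15 with vehicle and 12.12, 12.39 and 12.29 with aldosterone, a difference of 0.22 ± 0.066 (limma adjusted p = 0.14), which the authors' deposited table calls at 0.28 (adjusted p = 0.019, 1.21% of genes called). Without aldosterone library 1 limma called Chac1 at 0.29 (adjusted p = 0.033) and Sesn2 at 0.21 (adjusted p = 0.032). In parental cells with no MR, Ddit3 read 10.58, 10.56 and 10.58 with vehicle and 10.50, 10.51 and 10.49 with aldosterone, without overlap (6.04% of all genes, downward), a difference of -0.08 ± 0.018 that did not pass (limma adjusted p = 0.78). Of the pathway lists, 3 genes rose with aldosterone in parental MR580C cells, Ddit4 by 0.51, Atf5 by 0.21 and Cebpb by 0.19, and 0 changed in the other 3 lines named here. Whether the aldosterone response of any member differed between parental MR cells and MR cells labelled GRKO, or parental cells with no MR, was tested, and 0 of 8 passed (0.238% and 0.505% of genes called).

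In MR580C cells labelled GRKO, aldosterone lowered Trib3. Trib3 (NM_175093, chr2:152337425-152344060, minus strand) read 11.41, 11.40 and 11.39 with vehicle and 11.21 and 11.13 in the 2 distinct aldosterone libraries. The fall of 0.23 ± 0.034 (limma adjusted p = 0.023) made it 1 of 8 members called, against 0.298% of all genes, and without any 1 of the 3 vehicle libraries the adjusted p rose to between 0.11 and 0.27. Without limma's variance trend the adjusted p was 0.085, and with replicate number added to the fit Trib3 did not pass either. Aldosterone libraries lay wholly below vehicle for 5 members of this line, Trib3, Atf4, Asns, Sesn2 and Phgdh, a pattern shown by 16.9% of all genes. The authors' deposited table, in which the duplicated library counts as 2 and 3.14% of genes are called, lists 4 members lower: Trib3 at -0.40, Sesn2 at -0.30, Asns at -0.19 and Atf4 at -0.19. Without aldosterone library 1, when the lone remaining library is assumed to vary like the vehicle ones, limma called 5 members lower, Trib3, Atf4, Asns, Chac1 and Sesn2, and 2377 genes in all. The median over the 8 members tested was -0.095, against 0.00025 over all genes, and 7 of 8 differences were below 0.

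Corticosterone in the same line is known from the short table alone, which lists 404 genes, 402 of them under an adjusted p of 0.05 in the authors' deposited test (99.5%). It holds 8 of the 10 members, with 404 genes listed in all against 25124 for aldosterone in the same line. All 8 were lower with corticosterone, as were 56.4% of the 404 genes. The authors' deposited log2 fold changes were -0.41 for Chac1 and -0.37 for Trib3, then -0.28 for Ddit3, -0.22 for Sesn2, -0.15 for Asns, -0.11 for Phgdh, -0.10 for Psat1 and -0.097 for Atf4. Because genes stand in this table for having passed, the values are a description and were not tested.

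In the library values of that table the shift of every listed member was smaller than its deposited log2 fold change. For Chac1 it was -0.21 against -0.41. Trib3 read 11.37, 11.36 and 11.34 with vehicle and 11.16, 11.18 and 11.06 with corticosterone. Chac1 read 10.56, 10.53 and 10.57 with vehicle and 10.39, 10.41 and 10.23 with corticosterone. In both genes corticosterone library 3 was the lowest. Ddit3, at 9.06, 9.11 and 9.05 against 9.03, 8.99 and 8.96, came close to overlap, and so did Atf4, the regulator itself, at 13.63, 13.67 and 13.66 against 13.58, 13.61 and 13.54. The smallest mean shift of the library values was that of Psat1, -0.07, with vehicle libraries from 12.81 to 12.83 and corticosterone libraries from 12.72 to 12.75. Among the deposited log2 fold changes that of Atf4 was the smallest, at -0.097.

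**Figure D5:**
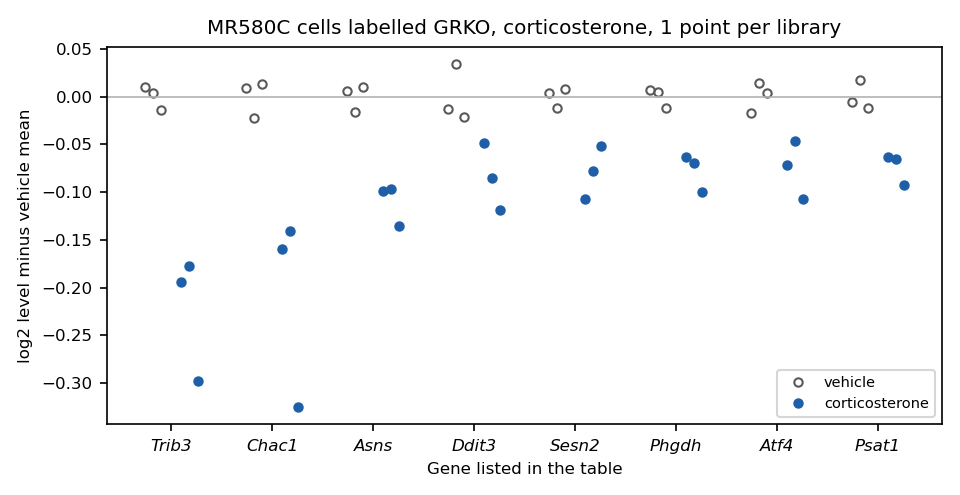
Library levels (log2) minus the vehicle mean of the 8 members listed in the short table (corticosterone, MR580C cells with the GRKO label); open points are vehicle and filled points corticosterone. All corticosterone points lie below all vehicle points of the same gene, with mean shifts from -0.22 for Trib3 to -0.07 for Psat1. Of the 404 genes listed there, 99.5% were without overlap in either direction and 56.4% were lower.

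The short table also held 21 of the 90 pathway genes, with 404 genes listed in all against 25124 for aldosterone in MR580C cells labelled GRKO. Of the 21 genes 20 were lower, against 56.4% of the 404. They were 6 of 15 amino acid synthesis genes, among them the mitochondrial folate enzymes Mthfd2 (authors' deposited log2 fold change -0.18) and Shmt2 (-0.13), 6 of 11 amino acid transporters, among them Slc7a5 (-0.18) and Slc3a2 (-0.18), the subunits of a large neutral amino acid exchanger, and Slc1a5 (-0.21), 3 of 20 aminoacyl-tRNA synthetase genes, all lower, and the ATF4 partner Cebpg (-0.20). The 1 gene that was higher was Atf6 (0.15), the sensor of another branch of the unfolded protein response. For aldosterone in the same line, against the same vehicle libraries, the authors' deposited table gives -0.23 for Slc7a5, -0.33 for Slc1a5, -0.26 for Cebpg, -0.19 for Mthfd2 and 0.21 for Atf6, all under an adjusted p of 0.05, but -0.09 for Shmt2 and -0.07 for Slc3a2 (adjusted p = 0.30 and 0.53). Of the 21 genes, 8 are under 0.05 there with aldosterone and 13 are not, while 3.14% of all genes are. The 21 stand in the short table for having passed against the same vehicle libraries, so these shares do not compare like with like. By limma 0 of 84 pathway genes passed for aldosterone in this line (0.298% of all genes called). Whether the lowering by corticosterone differs between parental and GRKO MR580C cells was not tested, since a table cut at a threshold gives no comparison.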

How the data were processed

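The library columns hold log2 values per gene that the authors deposited, made from exon reads counted with HOMER, per the file headers. The headers name a variance-stabilizing transformation (vst) for organoids and for parental MR580C cells; in the other 7 tables the log2 scale was taken as the regularized log from the values, and no header says so. Both pull weakly expressed genes together. The authors also deposited, per comparison, a log2 fold change with its p-value and adjusted p. The tables give a RefSeq transcript and mm10 coordinates per gene, and 237 older symbols were renamed in the tables of MR cells. Per the submitters' processing notes, the tools were HOMER 4.10.4, STAR 2.7.0f, deepTools, Bowtie2 2.3.4.1, Trimmomatic, cutadapt 1.18 and bcl2fastq 2.20. Their roles and how the counting treated strand were not given in the labels or headers. Kits were stranded total RNA kits, per the labels' protocols.

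Of 63 RNA samples 62 had a column (parental MR corticosterone replicate 2 had none) and 14 chromatin samples were not analysed here. Aldosterone libraries 2 and 3 of MR580C cells labelled GRKO were equal within 1e-06 and were averaged to 1. Reads per gene cannot be recovered, so no counting interval is given. Library totals per group are in the file headers.

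Each comparison was fitted within its table with limma 3.58.1 in R 4.3.3 (trend, group means, 2-sided), adjusted by Benjamini-Hochberg over all genes tested, with a threshold of 0.05. Genes had to vary and to reach a linear 10 (log2 3.32) in as many libraries as the smaller group. In the vst tables the minimum lay above that level: 9.16 in parental MR580C cells, 5.93 in WT and 6.65 in GRKO organoids. The level therefore removed no gene there, and the shares of all genes given for these comparisons include genes near the minimum. Differences between responses were limma interactions over tables of 1 scale, normalized separately by the authors. The design had assumed linear values; as the values were logs they were tested as deposited. The method was tested on simulated data with planted changes larger than any member call here, and without differences between responses. That test does not cover changes of the size called in the cells. All 10 members are reported in each comparison, and of the pathway lists mainly genes passing the threshold, at most the 4 with the smallest adjusted p per list. The members, lists and motifs were chosen with earlier results of these data known. Same-numbered samples were checked for shared deviations: with 3 or more pairs, no comparison had every correlation over 0.1, so numbers were not taken as pairs. Alternatives were no filter, no trend, a replicate block, each library left out, and the authors' own adjusted p.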

Additional observations from a re-analysis of the deposited data

Results flagged for a closer look

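Phgdh stood apart in 1 WT organoid vehicle library: library 3 read 11.93, while the other 5 read from 11.44 to 11.57. Sesn2 did so in 1 vehicle library of organoids labelled GRKO: library 1 read 9.67, while the other 4 read from 9.87 to 9.95. These were 2 of 40 member and group combinations tested for a library far from the rest, and chance gives about 1 in 20.

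The difference between responses passed its test for Ddit3, where the corticosterone response in parental MR cells minus that in MR cells labelled GRKO was -0.22 (limma adjusted p = 0.021), and for Vldlr, where the aldosterone response in WT organoids minus that in organoids labelled GRKO was 0.67 (limma adjusted p = 0.0060).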

How the results depend on the processing

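The member calls of WT organoids held under every alternative run: Atf3 and Vldlr, 2 of 10. No member called in a comparison changed sign in any alternative. With the authors' deposited adjusted p, members called rose from 0 to 1 in MR580C aldosterone, from 1 to 4 in GRKO MR580C aldosterone and from 0 to 2 in GRKO organoids, and genes called were 78 in GRKO MR corticosterone, 18 with no MR, 553 in GRKO MR580C aldosterone and 468 in GRKO organoids. Without the variance trend, genes called were 44 in parental MR aldosterone (87 with it), 20 and 10 in GRKO MR aldosterone and corticosterone (124 and 31), 7 in GRKO MR580C aldosterone (37) and 17 for the parental minus GRKO MR aldosterone response (29); members called fell from 2 to 1 in MR580C corticosterone (Sesn2, adjusted p = 0.053) and from 1 to 0 in GRKO MR580C aldosterone (Trib3, adjusted p = 0.085).

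With a replicate block, genes called were 365 and 1257 in parental MR aldosterone and corticosterone (87 and 388 without it), 252 and 66 in GRKO MR aldosterone and corticosterone, 0 with no MR (1), 19 in GRKO organoids (263), 300 and 737 for the parental minus GRKO MR aldosterone and corticosterone responses, and 33 for parental MR minus no MR (62). Members called with the block were 3 in parental MR corticosterone (Ddit3, Trib3 at -0.10 and Chac1 at -0.13), 2 for corticosterone minus aldosterone in MR580C (Ddit3 and Trib3), 2 for WT minus GRKO organoids (Vldlr and Atf3, adjusted p = 0.022) and 0 in GRKO MR580C aldosterone (Trib3, adjusted p = 0.061). The samples share only a number: with 3 or more pairs no comparison had every correlation over 0.1, those of WT organoids ran from -0.175 to 0.509, and 2 of 6 numbers there correlated best with themselves; parental MR cells have 2 pairs, too few to decide, which correlated at 0.699 to 0.75 with aldosterone and 0.675 to 0.722 with corticosterone, each best with its own number.

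With 1 library left out, genes called, then members, ran from 37 to 117 and 0 to 0 (parental MR aldosterone), 241 to 370 and 0 to 2 (parental MR corticosterone), 63 to 436 and 0 to 1 (GRKO MR aldosterone), 14 to 177 and 0 to 0 (GRKO MR corticosterone), 0 to 49 and 0 to 0 (no MR), 80 to 287 and 0 to 2 (MR580C aldosterone), 761 to 1746 and 0 to 1 (MR580C corticosterone), 5 to 2377 and 0 to 5 (GRKO MR580C aldosterone), 1127 to 1543 and 2 to 2 (WT organoids), 171 to 970 and 0 to 1 (GRKO organoids), 380 to 680 and 0 to 2 (corticosterone minus aldosterone), 21 to 40 and 0 to 0, and 260 to 400 and 0 to 1 (parental minus GRKO MR, aldosterone and corticosterone), 40 to 90 and 0 to 0 (MR minus no MR) and 406 to 649 and 1 to 2 (WT minus GRKO organoids). Where this left 1 library in a group, it was assumed to vary like the others. Log values without read counts set no detection limit for weakly expressed members, and the cause of each change was not tested.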
